A study of Mus musculus with 72 samples.

Results

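The clustered protocadherins are cell-surface adhesion proteins encoded by 3 neighbouring gene clusters, alpha, beta and gamma, on mouse chromosome 18. Members were taken as every gene in the deposited tables whose name starts with Pcdha, Pcdhb or Pcdhg, which gave 59 of 24060 genes. The alpha cluster held 15 of them, the beta cluster 22 and the gamma cluster 22, the last made up of 12 A-type, 7 B-type and 3 C-type members. With Pcdhac1 and Pcdhac2 of the alpha cluster, the C-type members numbered 5.

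Each member of the clusters starts from its own promoter and its own large variable exon, and a neuron uses its own combination of them. The proteins bind their like on the opposing membrane, and this recognition keeps branches of one neuron apart and helps axons spread through their targets. In the alpha and gamma clusters the variable exon is spliced to constant exons shared by the whole cluster, whereas beta members have no constant exons. C-type members differ from the others in being used by most neurons of a kind rather than by a random subset.

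RNA from the cortex of (C57BL/6J x FvB/NJ) F1 mice was sequenced in 72 libraries, 6 for each of 12 groups, with 3 females and 3 males in every group. The genotypes were 5xFAD/BAC-TREM2, 5xFAD, BAC-TREM2 and WT, and each was sampled when the mice were 2, 4 or 7 months old. The 5xFAD mouse carries human transgenes with familial Alzheimer's disease mutations, driven by the neuronal Thy1 promoter, and deposits amyloid. BAC-TREM2 carries the human TREM2 gene, a microglial receptor, on a bacterial artificial chromosome. 5xFAD carriers below are the 5xFAD and 5xFAD/BAC-TREM2 groups together, and non-carriers are the BAC-TREM2 and WT groups together. The labels do not say that each library is a separate mouse, so the p-values measure the spread between these samples, which may be technical. They name no batch either, so age cannot be told apart from the time of collection or sequencing.

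The recovered depth of the libraries ran from 13.1 to 22 M reads assigned to genes, with a median of 18.3 M. The cortex label fitted the markers: Slc17a7, the vesicular glutamate transporter of cortical excitatory neurons, averaged 605 RPKM (reads per kilobase of gene model per M assigned reads, where M is 10 to the sixth power) and the interneuron enzyme Gad1 105 RPKM. The thalamic marker Tcf7l2 averaged 1.34 RPKM and the striatal marker Drd2 1.48 RPKM. In 6 libraries other brain regions stood out. Summed choroid plexus markers were 199 times the median over all libraries in 5xFAD replicate 5 at 4 months, 136 times in 5xFAD replicate 4 at 7 months and 30.3 times in WT replicate 1 at 2 months. Summed hippocampus markers were 2.84 and 2.39 times the median in 5xFAD replicates 1 and 3 at 7 months and 1.72 times in 5xFAD replicate 3 at 2 months. Calls that ended or were gained without these 6 libraries are named beside the comparison.

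The gamma C-type members dominated the clusters. Pcdhgc5, which rises in the cortex after birth, averaged 34.2 ± 2.45 RPKM (SD, n = 72) with a range of 27.3 to 38.9 RPKM. Pcdhgc3, which promotes dendrite branching of cortical neurons, followed at 19.8 ± 1.42 RPKM, and Pcdhac2, needed for the tiling of serotonergic axons, at 9.08 ± 0.709 RPKM. These were the 3 highest means, each apart from the next by more than their SDs.

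The other C-type members were not set apart by level. Pcdhgc4, needed for the survival of cortical interneurons, averaged 3.07 ± 0.268 RPKM and stood among the gamma A members, and Pcdhac1 averaged 0.736 ± 0.133 RPKM, in the middle of the alpha cluster. After Pcdhac2 the levels ran down almost without a step. Of 57 neighbouring pairs in the order of levels, 53 had ranges of mean ± SD that overlapped. The 4 exceptions were Pcdhgc5 over Pcdhgc3, Pcdhgc3 over Pcdhac2, Pcdhac2 over Pcdhb17, and Pcdha2 over Pcdha1.

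In the gamma cluster the next member below Pcdhgc5 and Pcdhgc3 was Pcdhga11 at 4.99 ± 0.601 RPKM, and the lowest were Pcdhgb2, Pcdhgb8 and Pcdhgb4 at 1.57, 1.34 and 1.29 RPKM. In the beta cluster Pcdhb17 led with 5.21 ± 0.466 RPKM, followed by Pcdhb9 and Pcdhb20 at 3.77 and 3.76 RPKM. The lowest beta members were Pcdhb21 at 1.05 RPKM, Pcdhb4 at 0.957 RPKM and Pcdhb1 at 0.106 RPKM. Below Pcdhac2, the highest alpha members were Pcdha12 at 1.67 RPKM and Pcdha5 at 0.922 RPKM, and the lowest were Pcdha4 at 0.127 RPKM, Pcdha8 at 0.0952 RPKM and Pcdha4-g, which was listed at 0 in all 72 libraries.

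**Figure D1:**
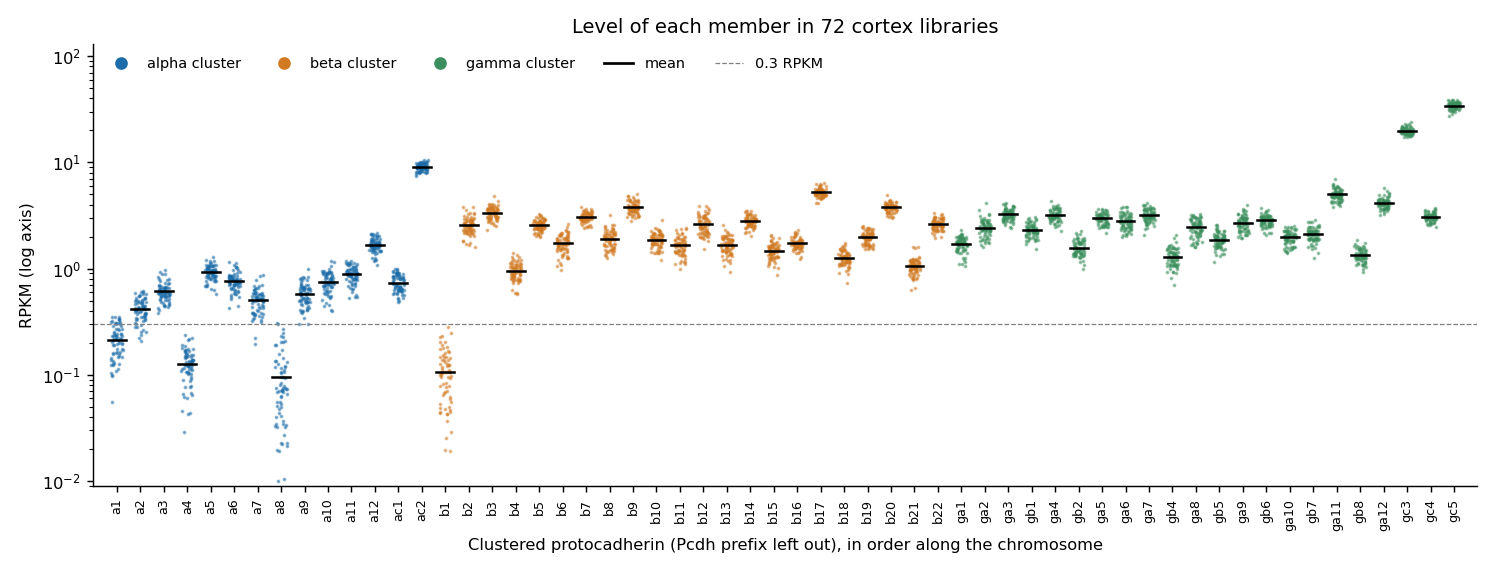
RPKM of each member in each of the 72 libraries (dots, log axis), in order along the chromosome, with the mean over libraries as a black bar, values of 0 left out and Pcdha4-g not drawn. Pcdhgc5, Pcdhgc3 and Pcdhac2 stand highest, at means of 34.2, 19.8 and 9.08 RPKM, and most alpha members lie below 1 RPKM.

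The clusters differed in level by a similar order on every scale tried. The median member averaged 0.609 RPKM in the alpha, 1.94 RPKM in the beta and 2.75 RPKM in the gamma cluster. Summed RPKM was 17.4 ± 1.29 for alpha, 49.7 ± 3.07 for beta and 106 ± 4.25 for gamma members (SD, n = 72), so that alpha supplied 10%, beta 28.7% and gamma 61.3% of the total. The C-type members alone supplied 38.6 ± 1.55%. All members together took 0.0758 ± 0.00266% of the assigned reads, or 10068 to 16690 reads per library.

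Alpha and gamma levels depend on how reads in the constant exons were counted. Reads in the 3 shared constant exons of the alpha cluster, 2860 bases, and the 3 of the gamma cluster, 2119 bases, cannot be given to 1 member. The gene model lengths behind the RPKM values include them, since the length recovered for Pcdha1, 5248 bases, is that of its whole transcript. Shared reads were not added to every member: Pcdha8 had no read in 1 library, while Pcdhac2 had a median of 908 reads. If the counted reads came from the variable exons, RPKM understates alpha and gamma members against beta members. Per kilobase of the model without the constant exons, the shares were 13.3% for alpha, 17.7% for beta and 69.0% for gamma, the C-type members supplied 44.3%, and Pcdhgc5, Pcdhgc3 and Pcdhac2 kept the top 3 places at 62.2, 36.1 and 19.2 reads per kilobase per M reads. Pcdhb17 moved to place 12 on that scale. The ratio of the RPKM of 1 gene between groups does not depend on its length. The tests below do in part, through the filter at 0.3 RPKM and the 0.1 RPKM added before taking logs.

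Variable exons are partly alike in sequence, and reads in such stretches may also be shared or lost. Stretches of 69 bases, the read length, that recur in another member made up a median of 9.95% of the first exon in the alpha cluster and 0% in the gamma cluster, and 1.36% of the whole transcript in the beta cluster. None exceeded 15.6%. No such stretch was found in the C-type members, in 13 of 22 gamma members in all, or in Pcdhb1, whereas Pcdhgb1 shared 13.9% of its first exon, most of it with Pcdhgb2.

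The median member tested varied more between libraries than the median gene tested, without matching of their levels. With sex and group removed, the residual SD on the log2 scale had a median of 0.192 over the 55 members tested, against 0.131 over all 15363 genes tested. In the members with the most reads it lay below the median over all genes, at 0.081 for Pcdhac2, 0.085 for Pcdhgc3 and 0.089 for Pcdhgc5. It was 0.32 for Pcdha1, whose counts are low and for which counting alone gives a coefficient of variation of 22.4%. This coefficient was 3.32%, 2.43% and 1.83% for Pcdhac2, Pcdhgc3 and Pcdhgc5, and at least 4.86% in every other member tested. How far counting accounts for the difference from all genes was not tested. The 55 members were those at 0.3 RPKM or more in at least 6 libraries: 12 alpha, 21 beta and 22 gamma members. Pcdha4, Pcdha4-g, Pcdha8 and Pcdhb1 did not pass.

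Members of 1 cluster varied together only slightly from library to library. After removing group and sex, Pearson's r over the 72 libraries averaged 0.101 for pairs within the alpha cluster, 0.097 within beta and 0.082 within gamma, against 0.01 over all pairs of tested genes. It averaged 0.082 between alpha and gamma members, 0.002 between alpha and beta and 0.001 between beta and gamma. Direct neighbours within a cluster averaged 0.13 and pairs at least 5 places apart 0.076. The highest values were 0.602 for Pcdhga8 with Pcdhgb5, 0.578 for Pcdhga10 with Pcdhgb5 and 0.532 for Pcdha12 with Pcdhac2, and the lowest was −0.419 for Pcdhga9 with Pcdhgb7. These points share libraries and their depth, and members of a cluster may share reads, so they are a description.

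Differences between groups were tested with limma on log2(RPKM + 0.1) over all 72 libraries with group and sex as terms, and a difference was called at a Benjamini-Hochberg adjusted p under 0.05 over the 15363 genes of that comparison. Fold changes are on that scale, which understates the change of low genes such as the alpha members.

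More members were called with age than in the other comparisons. Averaged over genotypes, 11 of 55 members were called higher and 11 lower at 7 months against 2 months, where 11.8% of all genes tested were called higher and 8.60% lower. Gamma A-type members made up most of the rise, with 6 of 12 called higher and 1 lower, while the alpha cluster had 6 of 12 called lower and none higher, and 4 of the 5 C-type members were called lower. The median difference was −0.139 in the alpha cluster, 0.06 in the beta and 0.077 in the gamma cluster, against 0.006 over all genes tested. Whether the clusters differ in these shares was not tested.

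Pcdhga6 had the smallest p of all members. It ranged from 2.40 to 3.83 RPKM at 7 months with a median of 3.05 RPKM, against 2.01 to 3.06 RPKM and a median of 2.42 RPKM at 2 months. The ages overlapped, but 23 of the 24 libraries at 7 months lay above the 2-month median. It rose by 0.33 ± 0.044 (log2, SE, adjusted p = 1.7e-08 in limma). Pcdhga2 rose by 0.36 ± 0.061 (adjusted p = 6.99e-06), with 22 of 24 libraries above the 2-month median.

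The other gamma members that rose were Pcdhga4, Pcdhga5, Pcdhga8, Pcdhga9 and Pcdhgb7, by 0.15 to 0.28. In the beta cluster Pcdhb9 ran from 3.50 to 5.05 RPKM at 7 months, with a median of 4.14 RPKM, against 2.97 to 4.35 RPKM and a median of 3.47 RPKM at 2 months. All 24 older libraries were above the younger median, and the rise was 0.24 ± 0.040 (adjusted p = 4.64e-06). Pcdhb12 rose by 0.32 ± 0.061 (adjusted p = 6.23e-05), and Pcdhb8 and Pcdhb14 rose by 0.23 and 0.13.

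Among C-type members, Pcdhgc5 ranged from 27.3 to 38.2 RPKM at 7 months around a median of 32.3 RPKM, against 32.8 to 38.4 RPKM and a median of 35.3 RPKM at 2 months. The older libraries spread further down, and 15 of 24 lay below every younger library. It fell by 0.11 ± 0.026 (adjusted p = 0.000802). Pcdhac2 fell by 0.10 ± 0.024 (adjusted p = 0.00123), Pcdhac1 by 0.26 ± 0.058 (adjusted p = 0.000402) and Pcdhgc4 by 0.089 ± 0.033 (adjusted p = 0.0432). Pcdhgc3 differed by 0.004 and was not called.

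In the alpha cluster Pcdha1, Pcdha2, Pcdha3 and Pcdha5 also fell, by 0.30, 0.23, 0.24 and 0.16. Pcdha3 had medians of 0.533 RPKM at 7 months and 0.650 RPKM at 2 months (adjusted p = 0.00424). In the beta cluster Pcdhb18 fell by 0.27 ± 0.052 (adjusted p = 7.1e-05) and Pcdhb22 by 0.15, and in the gamma cluster Pcdhga1 fell by 0.19. Without the 6 libraries high in choroid plexus or hippocampus markers 7 members were called lower. The calls of Pcdha1, Pcdha2, Pcdha5 and Pcdhgc4 ended there, with adjusted p of 0.098, 0.0686, 0.207 and 0.215. Leaving out 1 library also ended the calls of Pcdhgc4 in 28 of 72 fits, of Pcdha5 in 21 and of Pcdhb14 in 4, at an adjusted p of up to 0.0786, 0.0745 and 0.0531. With the first number of the sample name as a block 6 members were called lower, and the calls of Pcdha1, Pcdha2, Pcdha5, Pcdhga1 and Pcdhgc4 and the rise of Pcdhb14 ended. Pcdhb13 and Pcdhgb6 were also called higher without the 6 libraries.

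At 4 months against 2 months 10 members were called higher and 1 lower, where 6.29% of all genes tested were called higher and 9.02% lower. The 10 were 8 gamma members, Pcdhga2, Pcdhga4, Pcdhga5, Pcdhga6, Pcdhga9, Pcdhga12, Pcdhgb6 and Pcdhgb7, and the beta members Pcdhb8 and Pcdhb12. Pcdhga6 rose by 0.22 (adjusted p = 0.000239) and Pcdhb12 by 0.30 (adjusted p = 0.00036). Pcdha1 fell by 0.29 (adjusted p = 0.0357), a call that left-out libraries ended in 11 of 72 fits. The calls of Pcdhb8 and Pcdhga2 ended in 27 and 4 of these fits, at an adjusted p of up to 0.081 and 0.0529. Without the 6 libraries Pcdha1, Pcdhb8 and Pcdhga2 were not called (adjusted p = 0.0812, 0.11 and 0.0656), and Pcdhb10 was called lower. With the block these 3 calls ended too.

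At 7 months against 4 months 2 members were called higher, Pcdhb9 by 0.18 and Pcdhga2 by 0.17, and 7 lower, where 18.0% of all genes were called higher and 9.71% lower. The 7 were Pcdha3, Pcdhac1, Pcdhac2, Pcdhb17, Pcdhb18, Pcdhb22 and Pcdhgc5. Pcdhac2 fell by 0.12 ± 0.024 (adjusted p = 0.000175) and Pcdhac1 by 0.24 ± 0.058 (adjusted p = 0.00118). All 12 tested alpha members had a difference below 0, where 39.6% of all genes did. The call of Pcdhga2 ended without WT replicate 2 at 7 months (adjusted p = 0.0542), and that of Pcdha3 in 24 of the 72 fits that left out 1 library (adjusted p up to 0.0741). Without the 6 libraries Pcdha3 and Pcdhb17 were not called (adjusted p = 0.0863 and 0.0551), Pcdhga1 and Pcdhga10 were called lower and Pcdhga6 higher. With the block the calls of Pcdha3, Pcdhb17 and Pcdhga2 ended.

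**Figure D2:**
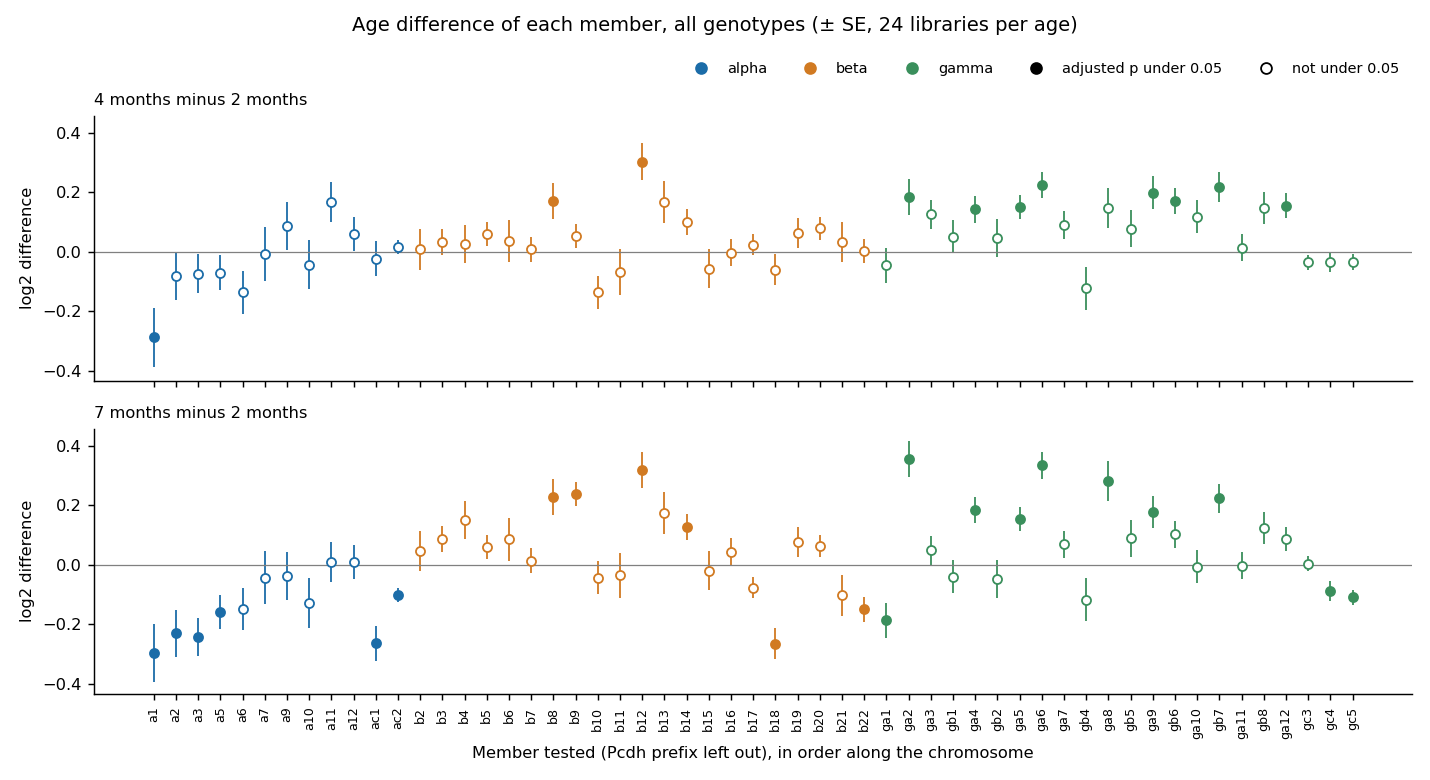
Log2 difference with its SE for each of the 55 members tested, in order along the chromosome, at 4 months minus 2 months (upper panel) and 7 months minus 2 months (lower panel), with filled points for an adjusted p under 0.05. In the lower panel 6 of 12 alpha members are filled below 0, and 7 of 22 gamma members are filled above 0.

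The same age comparison was made within single genotypes. At 7 months against 2 months 11 of 12 alpha members were lower in 5xFAD/BAC-TREM2, 10 in 5xFAD, 9 in BAC-TREM2 and 10 in WT, most of them short of a call. Gamma members were higher in 15, 12, 15 and 17 of 22 in these genotypes. Members called numbered 8 in 5xFAD/BAC-TREM2, 5 in 5xFAD, 1 in BAC-TREM2 and 0 in WT, where 8.58%, 11.6%, 0.332% and 0.423% of all genes were called by limma. In WT 5 members were higher and 6 lower at an unadjusted p under 0.05. Pcdhga6 differed by 0.35 ± 0.088 in 5xFAD/BAC-TREM2, 0.315 ± 0.088 in 5xFAD, 0.56 ± 0.088 in BAC-TREM2 and 0.11 ± 0.088 in WT (adjusted p = 0.00582, 0.0116, 0.000136 and 0.643). In WT the smallest p belonged to Pcdhga2, at 0.43 ± 0.114 (adjusted p = 0.0656).

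Other genes moved with age beside these. Of the marker lists, 10 of 11 microglial genes were called higher at 7 months against 2 months, with summed levels of 136 to 625 RPKM at 7 months and 131 to 166 RPKM at 2 months. Of 8 astrocyte genes 4 were called higher, with summed levels of 1170 to 1680 RPKM at 7 months and 1180 to 1380 RPKM at 2 months. Of 10 excitatory neuron genes 3 were called lower, and of 10 interneuron genes 3 were called lower and 1 higher. Of 7 oligodendrocyte genes 5 were called lower, with summed levels of 588 to 826 RPKM at 7 months and 646 to 943 RPKM at 2 months. Of 8 genes common to neurons 1 was called higher and 2 lower, with summed levels of 3220 to 3770 RPKM at 7 months and 3280 to 3600 RPKM at 2 months. The defining markers of each of these lists had a median above 0.1 RPKM over all libraries together, with no median taken by age. Their part in the result was not tested. At 4 months against 2 months 7 of 11 microglial genes, 3 of 8 genes common to neurons and 2 of 8 astrocyte genes were called higher. Of 10 interneuron genes 3 were called lower and 1 higher there, and of 10 excitatory neuron genes 0 were called. Of 6 genes of fibroblasts and meninges 5 were called lower, with summed levels of 24 to 60.9 RPKM at 4 months and 43 to 70.5 RPKM at 2 months. At 7 months against 4 months 10 of 11 microglial genes, 5 of 8 astrocyte genes and 4 of 6 genes of fibroblasts and meninges were called higher. Of 10 excitatory neuron genes 4, of 7 oligodendrocyte genes 3 and of 8 genes common to neurons 2 were called lower in that comparison. Over all genes tested, 11.8% were called higher and 8.60% lower at 7 against 2 months. At 4 against 2 months these shares were 6.29% and 9.02%, and at 7 against 4 months 18.0% and 9.71%. In bulk RNA fewer cells of a type and less RNA per cell cannot be told apart.

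In females against males, 7 of 21 beta members were called higher and none lower, where 2.73% of all genes tested were called higher and 1.43% lower. In the gamma cluster limma called 0 of 22, with 5 lower and none higher at an unadjusted p under 0.05, and in the alpha cluster it called 1 of 12 lower. Of the beta members 19 of 21 had a positive difference, with a median of 0.097 against 0.008 over all genes. The 7 were Pcdhb2, Pcdhb3, Pcdhb4, Pcdhb5, Pcdhb6, Pcdhb9 and Pcdhb10, of which Pcdhb2 to Pcdhb6 lie next to each other. Beta members carry the same kind of extracellular recognition domains as the other clusters without the shared cytoplasmic end.

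Pcdhb3 showed the smallest p. It ranged from 2.85 to 4.84 RPKM in females with a median of 3.68 RPKM, against 2.32 to 3.98 RPKM and a median of 3.05 RPKM in males. The sexes overlapped, and 34 of 36 females lay above the male median. The rise in females was 0.23 ± 0.036 (adjusted p = 1.09e-05 in limma). Pcdhb5 ranged from 2.11 to 3.26 RPKM in females, median 2.73 RPKM, against 1.98 to 3.08 RPKM in males, median 2.38 RPKM, a rise of 0.18 ± 0.033 (adjusted p = 0.00028).

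Pcdhb6 was higher by 0.285 ± 0.058 in females (adjusted p = 0.00137), with medians of 1.92 RPKM in females and 1.56 RPKM in males. Pcdhb2 was higher by 0.24 ± 0.055 (adjusted p = 0.00515), and 30 of 36 females lay above the male median in both. Pcdhb4, Pcdhb9 and Pcdhb10 were higher by 0.17, 0.11 and 0.15 (adjusted p = 0.0425, 0.0321 and 0.042). The calls of Pcdhb4 and Pcdhb10 ended in 29 and 28 of the 72 fits that left out 1 library, at most at an adjusted p of 0.0645 and 0.0608. The call of Pcdhb10 also ended without the 6 libraries named above (adjusted p = 0.0628). With the first number of the sample name as a block, the calls of Pcdhb4, Pcdhb9 and Pcdhb10 ended. Those of Pcdhb4 and Pcdhb10 also ended with median-of-ratios scaling and with no filter on low values. The sum of the 7 was 18.0 ± 1.21 RPKM in females and 15.7 ± 1.17 RPKM in males (SD, n = 36 each). Pcdha9 fell by 0.27 ± 0.066 in females (adjusted p = 0.00956), with a range of 0.3 to 0.707 RPKM in females and 0.427 to 0.993 RPKM in males.

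Within ages, 17, 15 and 19 of 21 beta members were higher in females at 2, 4 and 7 months. Within genotypes, 18 were higher in females in 5xFAD/BAC-TREM2, 14 in 5xFAD, 19 in BAC-TREM2 and 17 in WT mice. For Pcdhb3 the difference was 0.24 ± 0.060 at 2 months, 0.27 ± 0.060 at 4 months and 0.18 ± 0.060 at 7 months. With 12 females and 12 males per age, Pcdhb3 at 4 months was the single member that limma called (adjusted p = 0.0149), where 0.130%, 0.508% and 1.15% of all genes were called at 2, 4 and 7 months.

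With 9 females and 9 males per genotype, limma called 3 members in 5xFAD/BAC-TREM2, 0 in 5xFAD, 2 in BAC-TREM2 and 0 in WT, where 0.423%, 2.23%, 0.312% and 0.0846% of all genes were called. At an unadjusted p under 0.05 there were 3 members higher and 3 lower in 5xFAD, and 6 higher and 3 lower in WT. The 3 in 5xFAD/BAC-TREM2 were Pcdhb2, Pcdhb3 and Pcdhb5, higher by 0.435 ± 0.105, 0.278 ± 0.070 and 0.306 ± 0.063 (adjusted p = 0.0367, 0.0459 and 0.00598). The 2 in BAC-TREM2 were Pcdhb3 and Pcdhb5, higher by 0.292 ± 0.070 and 0.262 ± 0.063 (adjusted p = 0.0427 and 0.0449). Pcdhb2 differed by 0.001 ± 0.105 in 5xFAD. Whether the genotypes differ in this was not tested. The test of a sex difference that changes with age called 0 members at 4 or 7 months against 2 months in limma, with 7 and 1 members higher and none lower at an unadjusted p under 0.05.

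Of the marker lists, 3 of 11 microglial genes, 2 of 5 oligodendrocyte precursor genes, 1 of 7 oligodendrocyte genes and 1 of 8 astrocyte genes were called higher in females. Of 10 interneuron genes 1 was called lower in females. Summed microglial markers ran from 129 to 625 RPKM in females, median 148 RPKM, and from 128 to 341 RPKM in males, median 150 RPKM. Summed precursor markers ran from 78.1 to 110 RPKM in females and from 68.9 to 103 RPKM in males. The genes common to neurons ran from 3220 to 4100 RPKM in females and from 3240 to 3810 RPKM in males, with 0 of 8 called by limma. Of all genes tested 2.73% were called higher in females and 1.43% lower. The part of these markers in the result was not tested.

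**Figure D3:**
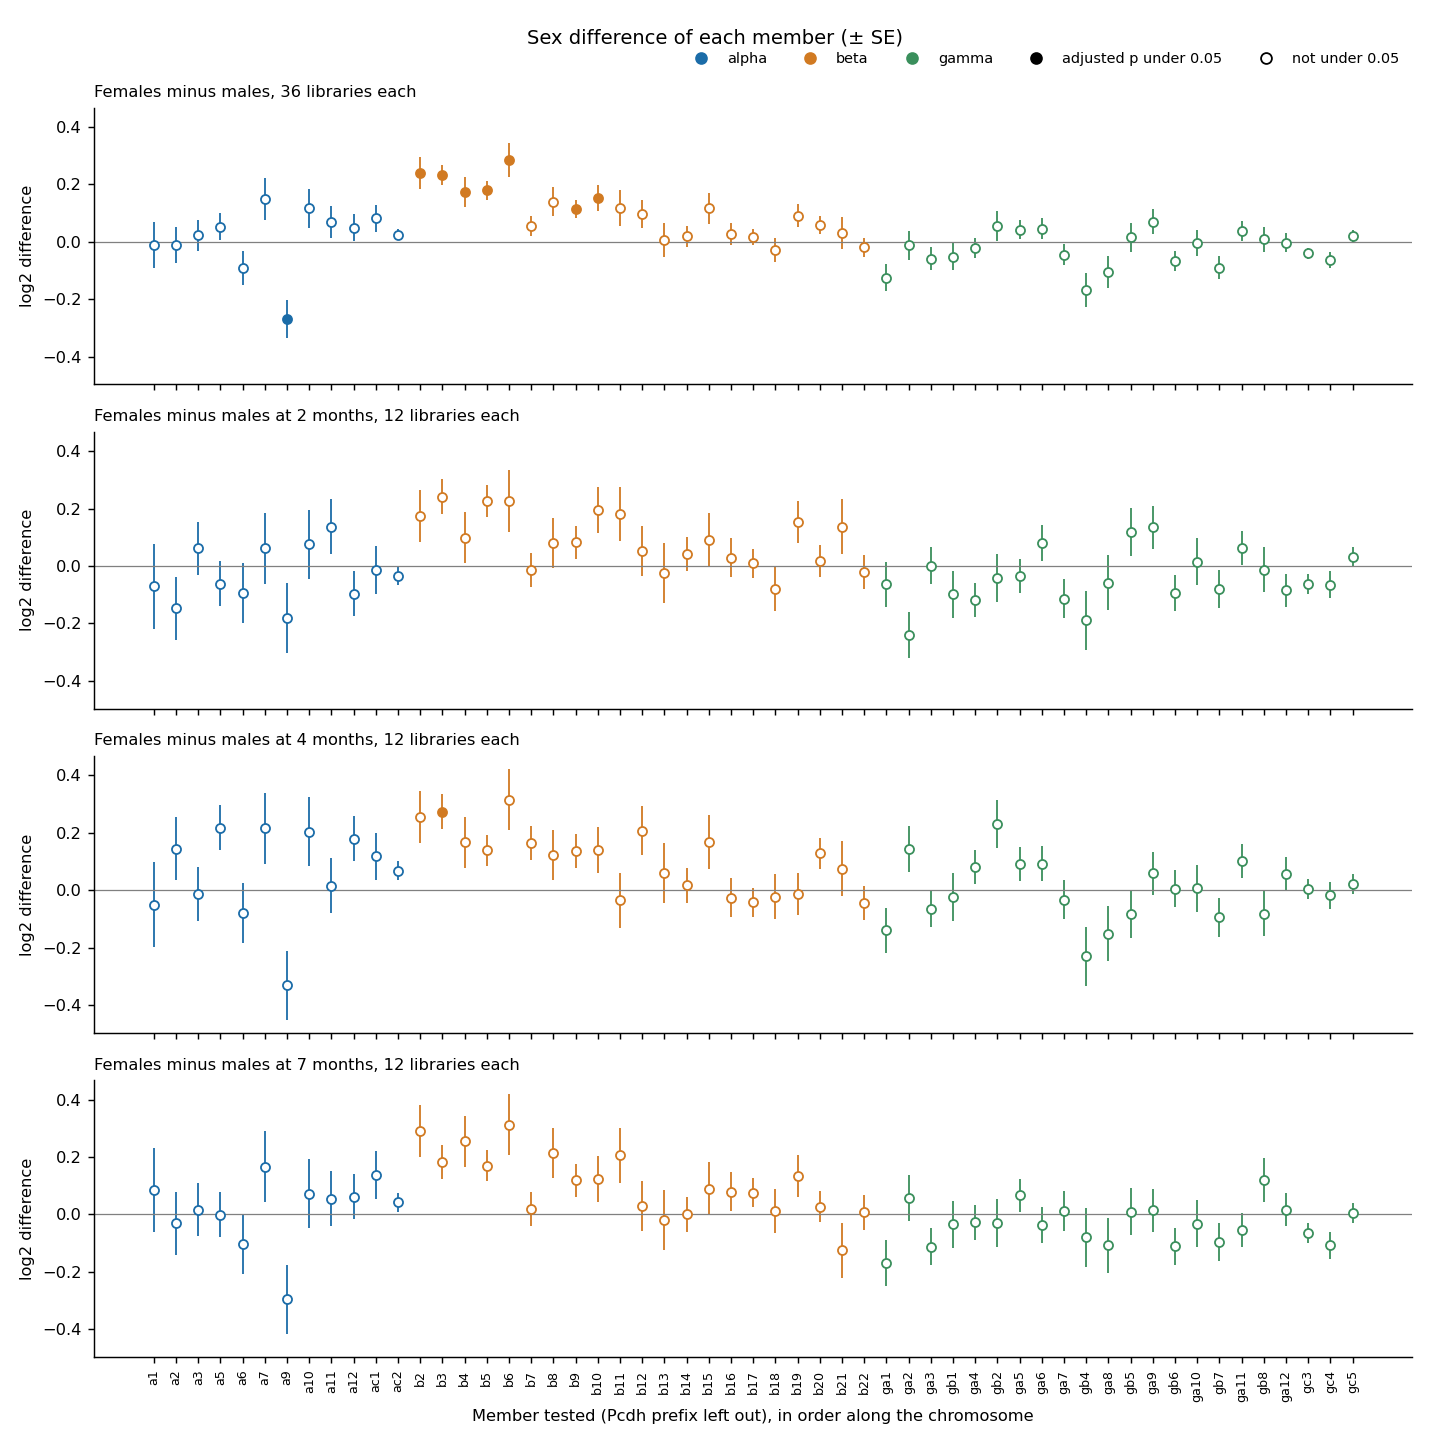
Log2 difference of females minus males with its SE for the 55 members tested, in order along the chromosome, over all libraries (top, 36 of each sex) and at 2, 4 and 7 months (12 of each sex), with filled points for an adjusted p under 0.05. Of 21 beta members 19 lie above 0 in the top panel, the filled beta points there reach from 0.11 to 0.285, and Pcdha9 is the single filled point below 0.

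In 5xFAD carriers against non-carriers at 2 months limma called 0 of 55 members, with 0 higher and 3 lower at an unadjusted p under 0.05, where it called 0.0325% of all genes. The smallest p belonged to Pcdhga9, which differed by −0.19 ± 0.077 (adjusted p = 0.997), and the smallest among positive differences to Pcdhb14, at 0.12 ± 0.062 (adjusted p = 0.997). For 5xFAD against WT at 2 months limma called 0 members as well, with 1 lower at an unadjusted p under 0.05, where it called 0.0260% of all genes.

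At 4 months 5 members were called lower in carriers and none higher, where 4.54% of all genes tested were called lower and 8.67% higher. Pcdhac2 ranged from 7.48 to 9.79 RPKM in carriers with a median of 8.92 RPKM, against 8.74 to 10.6 RPKM and a median of 10 RPKM in non-carriers. The ranges overlapped, yet all 12 carriers lay below the non-carrier median. It fell by 0.15 ± 0.034 (adjusted p = 0.00228). No alternative and no left-out library ended this call.

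Pcdhgc4 ranged from 2.65 to 3.19 RPKM in carriers, median 2.98 RPKM, against 2.94 to 3.60 RPKM in non-carriers, median 3.20 RPKM. All 12 carriers again lay below the non-carrier median, and the fall was 0.15 ± 0.046 (adjusted p = 0.0233). This call ended in a fit of only the groups compared. Pcdhb5, Pcdhb16 and Pcdhgb7 fell by 0.16, 0.19 and 0.21 (adjusted p = 0.0475, 0.0394 and 0.0415). These 3 calls were lost without the 6 libraries high in choroid plexus or hippocampus markers (adjusted p = 0.132, 0.0648 and 0.0841). They also ended in 15, 10 and 15 of the 72 fits that left out 1 library, at an adjusted p of up to 0.132, 0.105 and 0.112. A fit of only the groups compared ended these 3 as well. With no filter on low values and with the block the calls of Pcdhb5 and Pcdhgb7 ended, and with no sex term that of Pcdhb5. Of all 55 members 42 had a negative difference, with a median of −0.075, while 38% of all genes did, with a median of 0.03.

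For 5xFAD against WT at 4 months 3 members were called lower and none higher, where 1.63% of all genes were called lower and 4.93% higher. Pcdhac2 ran from 7.48 to 9.40 RPKM in 5xFAD with a median of 8.27 RPKM, against 8.74 to 10.2 RPKM and a median of 9.97 RPKM in WT, a fall of 0.21 ± 0.048 (adjusted p = 0.00468). Pcdha11 ran from 0.566 to 0.928 RPKM in 5xFAD, median 0.800 RPKM, against 0.977 to 1.19 RPKM in WT, median 1.07 RPKM. Its groups did not overlap, but how often this holds over all genes tested was not counted. Pcdha11 fell by 0.42 ± 0.136 (adjusted p = 0.0456) where, as above, 1.63% of all genes were called lower.

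Pcdhgb7 fell by 0.325 ± 0.101 in 5xFAD against WT at 4 months (adjusted p = 0.0381), with 5 of 6 5xFAD libraries below the WT median. The calls of Pcdha11 and Pcdhgb7 ended in 10 and 8 of the fits that left out 1 library, with an adjusted p of up to 0.167 and 0.166, both without 5xFAD replicate 3. They ended as well without the 6 libraries named above (adjusted p = 0.103 and 0.111), where Pcdhga6 was called lower. In a fit of only the 12 libraries compared, 0 of the 3 were called.

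At 7 months the members called in carriers went both ways. There were 2 higher and 3 lower, where 7.68% of all genes were called higher and 2.52% lower. Pcdhgc3 ranged from 19.1 to 22.8 RPKM in carriers with a median of 21.4 RPKM, against 17.2 to 21.6 RPKM and a median of 18.5 RPKM in non-carriers. All 12 carriers were above the non-carrier median and 6 were above every non-carrier. It rose by 0.16 ± 0.035 (adjusted p = 0.000373), and no alternative or left-out library ended the call. By group it averaged 22 ± 0.624 RPKM in 5xFAD/BAC-TREM2, 20.2 ± 1.45 RPKM in 5xFAD, 19.4 ± 1.54 RPKM in BAC-TREM2 and 18.3 ± 0.815 RPKM in WT (SD, n = 6 each).

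Pcdhb12 also rose, by 0.28 ± 0.087 (adjusted p = 0.0254), with a range of 2.79 to 3.74 RPKM in carriers and 1.99 to 3.09 RPKM in non-carriers. The call ended without BAC-TREM2 replicate 1 or 3 or 5xFAD replicate 2, at an adjusted p of up to 0.0681. It ended as well with the first number of the sample name as a block, where Pcdhb22 was called higher. The beta cluster had 16 of 21 members with a positive difference, and its sum averaged 51.4 ± 2.07 RPKM in carriers and 49.5 ± 3.12 RPKM in non-carriers (SD, n = 12 each).

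The 3 members that fell at 7 months, Pcdhga7, Pcdhga9 and Pcdhga11, are all gamma A members. Pcdhga11 ranged from 3.78 to 5.39 RPKM in carriers with a median of 4.51 RPKM, against 4.12 to 6.90 RPKM and a median of 5.40 RPKM in non-carriers. All 12 carriers lay below the non-carrier median, and the fall was 0.24 ± 0.063 (adjusted p = 0.00658), which no alternative or left-out library ended. Pcdhga9 fell by 0.27 ± 0.077 and Pcdhga7 by 0.20 ± 0.065 (adjusted p = 0.0129 and 0.0309). Both of these calls ended without the 6 libraries high in choroid plexus or hippocampus markers, 3 of which are 7-month 5xFAD libraries (adjusted p = 0.082 and 0.317). That of Pcdhga7 also ended in 8 of the 72 fits that left out 1 library, at an adjusted p of up to 0.105, with only the groups compared and with the block. Pcdhga10 and Pcdhgb5 were called lower in carriers without the 6 libraries.

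For 5xFAD against WT at 7 months 3 members were called lower and none higher, where 2.04% of all genes were called lower and 6.31% higher. Pcdhga11 ran from 3.78 to 5.17 RPKM in 5xFAD with a median of 4.34 RPKM, against 4.65 to 5.98 RPKM and a median of 5.67 RPKM in WT, and fell by 0.32 ± 0.089 (adjusted p = 0.0121). Pcdhga9 fell by 0.37 ± 0.109 and Pcdhgb5 by 0.415 ± 0.124 (adjusted p = 0.0182 and 0.0227). Pcdhga9 lost its call without the 6 libraries (adjusted p = 0.299). Leaving out 1 library ended the call of Pcdhga9 in 3 of 72 fits and that of Pcdhgb5 in 4, at an adjusted p of up to 0.0812 and 0.0804. In a fit of only the 12 libraries compared, 0 of these 3 were called lower and Pcdhb12 was called higher. The smallest p among positive differences was that of Pcdhgc3, at 0.14 ± 0.049 (adjusted p = 0.0596).

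**Figure D4:**
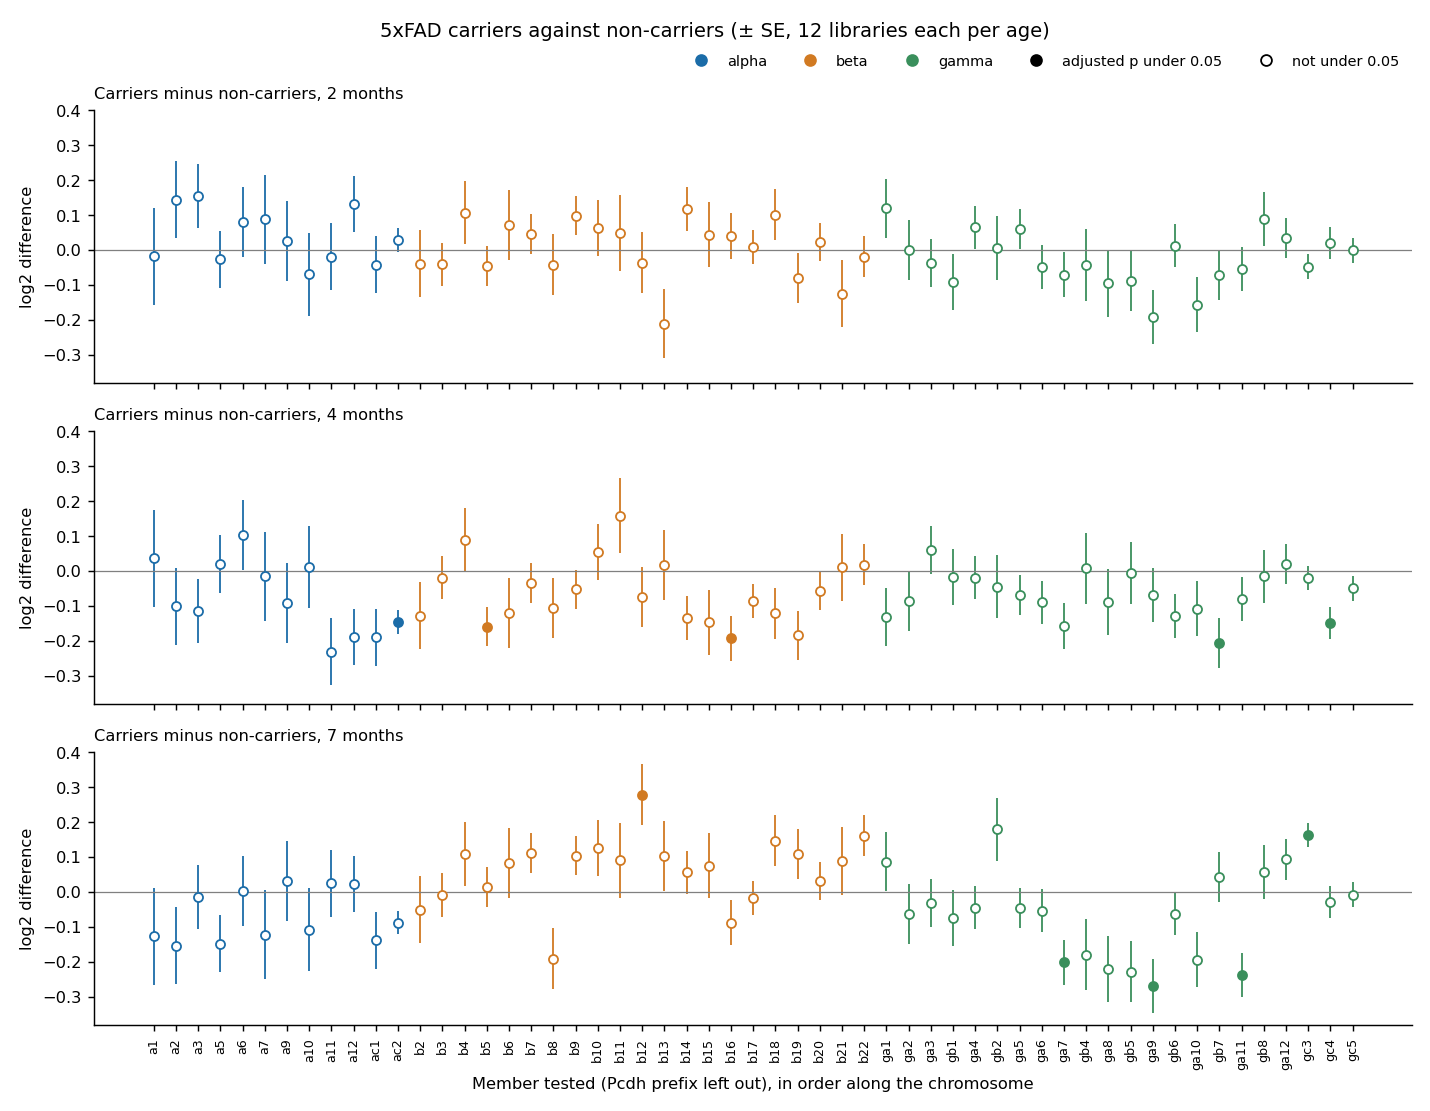
Log2 difference of 5xFAD carriers minus non-carriers with its SE for the 55 members tested, in order along the chromosome, at 2, 4 and 7 months (12 libraries of each per age), with filled points for an adjusted p under 0.05. No point is filled at 2 months, 5 are filled below 0 at 4 months, and 2 above and 3 below 0 at 7 months.

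The change of the carrier difference with age was called for 1 member at each later age. For Pcdhac2 the carrier difference at 4 months was lower than at 2 months by 0.175 ± 0.048 (adjusted p = 0.0339), where 2.02% of all genes were called higher and 0.560% lower. It was lost in a fit of only the groups compared, without the 6 libraries (adjusted p = 0.0703) and in 15 of the 72 fits that left out 1 library. For Pcdhgc3 the carrier difference at 7 months exceeded that at 2 months by 0.21 ± 0.049 (adjusted p = 0.00237), where 4.50% of all genes were called higher and 0.560% lower. That call stood in each fit run.

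Within sexes, the difference of Pcdhgc3 between carriers and non-carriers at 7 months was 0.19 ± 0.048 in females and 0.13 ± 0.048 in males (adjusted p = 0.00421 and 0.17). That of Pcdhac2 at 4 months was −0.20 ± 0.047 in females and −0.092 ± 0.047 in males (adjusted p = 0.00182 and 0.54). That of Pcdhga11 at 7 months was −0.17 ± 0.085 in females and −0.305 ± 0.085 in males (adjusted p = 0.265 and 0.034). Whether the sexes differ in these was not tested. At 4 months 16.4% of all genes were called in females and 0.195% in males, and at 7 months 9.24% and 2.46%.

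Markers of glia moved strongly in the same comparisons. At 7 months 11 of 11 microglial genes and 8 of 8 astrocyte genes were called higher in carriers, with summed microglial levels of 212 to 625 RPKM in carriers and 136 to 152 RPKM in non-carriers, and astrocyte levels of 1360 to 1680 RPKM in carriers and 1170 to 1320 RPKM in non-carriers. Of 10 interneuron genes 5 were called lower, with summed levels of 869 to 1110 RPKM in carriers and 958 to 1110 RPKM in non-carriers. Of 8 genes common to neurons 1 was called lower, with summed levels of 3220 to 3620 RPKM in carriers and 3300 to 3770 RPKM in non-carriers. Of 10 excitatory neuron genes 2 were called lower. At 4 months 9 of 11 microglial genes and 3 of 8 astrocyte genes were called higher. Of 8 genes common to neurons 1, of 10 excitatory neuron genes 2 and of 10 interneuron genes 2 were called lower there. None of these was called higher, and the list medians were −0.065, −0.024 and −0.063, against 0.03 over all genes tested. Of all genes 8.67% were called higher and 4.54% lower at 4 months, and 7.68% and 2.52% at 7 months. None of the markers of these lists had a median under 0.1 RPKM over all libraries together, and their part in the results above was not tested. Also at 7 months 2 of 5 oligodendrocyte precursor genes were called higher in carriers, and their part was not tested either.

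**Figure D5:**
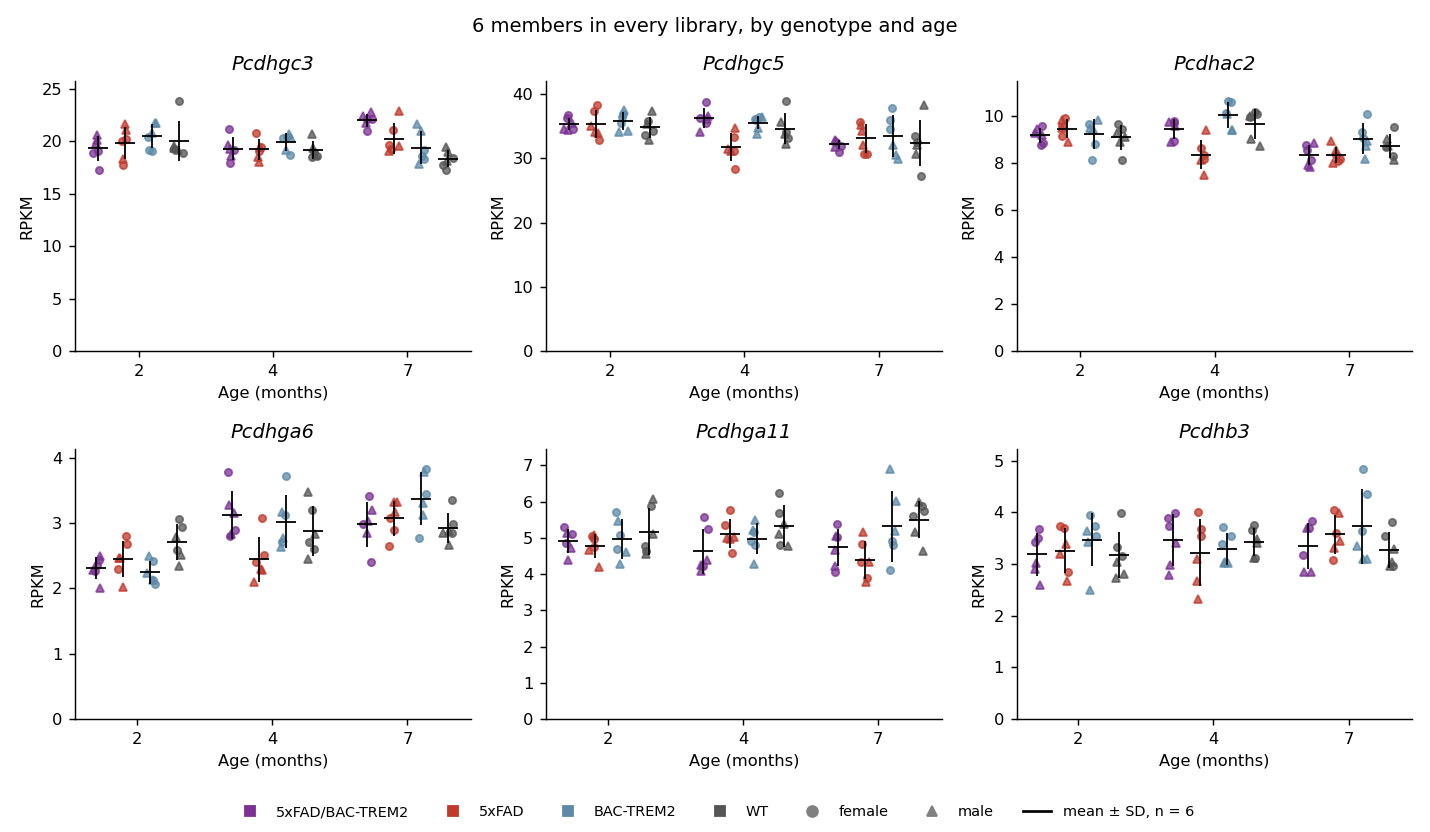
RPKM of Pcdhgc3, Pcdhgc5, Pcdhac2, Pcdhga6, Pcdhga11 and Pcdhb3 in every library, by age and genotype (circles females, triangles males, bars mean ± SD, n = 6). Pcdhgc3 reaches 22 RPKM in 5xFAD/BAC-TREM2 at 7 months against 18.3 RPKM in WT, and among the 4-month groups Pcdhac2 is lowest in 5xFAD, at 8.36 RPKM against 9.66 RPKM in WT.

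For 5xFAD/BAC-TREM2 against 5xFAD limma called 0 of 55 members at 2, 4 and 7 months, where 0%, 0.247% and 0.378% of all genes were called. At an unadjusted p under 0.05 there were 2 higher and 0 lower at 2 months, 6 higher and 3 lower at 4 months, and 7 higher and 0 lower at 7 months. The 0 at 4 months depends on the model: count models on the reads recovered from RPKM called members higher there, and their values are not reported here.

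The members nearest to a call were Pcdhga6 and Pcdhgc5 at 4 months. Pcdhga6 ranged from 2.80 to 3.77 RPKM in 5xFAD/BAC-TREM2, median 3.03 RPKM, against 2.09 to 3.07 RPKM in 5xFAD, median 2.35 RPKM, a difference of 0.34 ± 0.088 (adjusted p = 0.0777). Pcdhgc5 ranged from 34.1 to 38.8 RPKM in 5xFAD/BAC-TREM2, median 36.1 RPKM, against 28.3 to 34.7 RPKM in 5xFAD, median 31.3 RPKM, a difference of 0.19 ± 0.051 (adjusted p = 0.0969). The groups overlapped at their edges in both genes. Without the 6 libraries limma called 1 member higher at 4 months, Pcdhga6. On the negative side Pcdhga7 differed by −0.31 ± 0.091 and Pcdhb8 by −0.39 ± 0.122 (adjusted p = 0.153 and 0.206). At 7 months the smallest p values were those of Pcdha2, at 0.40 ± 0.156, and Pcdhgc3, at 0.12 ± 0.049 (adjusted p = 0.273 and 0.283).

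For BAC-TREM2 against WT limma called 0 of 55 members at each age, where it called 0% of all genes. At an unadjusted p under 0.05 there were 2 members lower at 2 months, Pcdhga6 and Pcdhga5, 1 lower at 4 months, Pcdha5, and 1 higher at 7 months, Pcdhga6. Pcdhga6 differed by −0.26 ± 0.088 at 2 months and by 0.19 ± 0.088 at 7 months (adjusted p = 0.776 and 0.795).

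The interaction of the transgenes, which asks whether the BAC-TREM2 difference depends on 5xFAD, was called for 0 members at each age in limma, where it called 0%, 0.0325% and 0.0846% of all genes at 2, 4 and 7 months. At an unadjusted p under 0.05 there were 2 higher and 0 lower at 2 months, 3 and 2 at 4 months, and 5 and 1 at 7 months. The smallest p belonged to Pcdhga5 at 2 months, at 0.44 ± 0.114 (adjusted p = 1.00), and to Pcdhb8 at 4 months, at −0.59 ± 0.173 (adjusted p = 0.447). Pcdhga5 averaged 3.03 RPKM in 5xFAD/BAC-TREM2, 2.61 RPKM in 5xFAD, 2.46 RPKM in BAC-TREM2 and 2.93 RPKM in WT at 2 months.

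Genes that act on or with the clusters were followed in 3 lists. Of 18 tested chromatin regulators, which include CTCF and the cohesin subunits that loop enhancers to cluster promoters and the repressor Smchd1, 7 fell in carriers at 4 months, where 4.54% of all genes did. By smallest p they were led by Smchd1, Nipbl, Pds5b and Smc3, at −0.15, −0.175, −0.14 and −0.18 (adjusted p = 0.00342, 0.00345, 0.00472 and 0.00602). In 5xFAD against WT at 4 months limma called 0 of the 18, where 1.63% of all genes were called lower and 4.93% higher. At 7 months none of the 18 was called in limma. With age, 4 rose at 4 months against 2 months, among them Rad21, Stag2 and Ctcf, by 0.073, 0.097 and 0.048. Dnmt3a, a DNA methyltransferase, fell by 0.14. Of all genes 6.29% were called higher and 9.02% lower there. At 7 months against 4 months 3 of the 18 were called higher and 4 lower, where 18.0% and 9.71% of all genes were. At 7 months against 2 months Pds5b fell by 0.091, where 8.60% of all genes were called lower.

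Of 11 tested protocadherins outside the clusters 5 fell in carriers at 4 months, where 4.54% of all genes did, led by Pcdh9, Pcdh10, Pcdh7 and Pcdh11x at −0.19, −0.13, −0.16 and −0.205 (adjusted p = 0.001, 0.00804, 0.0125 and 0.0256), and none was called at 7 months. At 7 months against 2 months 5 fell, where 8.60% of all genes did, led by Pcdh20 at −0.42 (adjusted p = 6.47e-06) and Pcdh10 at −0.12 (adjusted p = 0.000129), and none rose. In females against males Pcdh8 fell by 0.13 (adjusted p = 0.0468).

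Of 20 partners and proteases of the clusters 2 rose and 2 fell in carriers at 4 months, where 8.67% of all genes were called higher and 4.54% lower. At 7 months 4 rose and 1 fell, where 7.68% were called higher and 2.52% lower. At 7 months Cyfip1 and Marcks rose by 0.19 each and Fyn by 0.06, and Cyfip2 fell by 0.095. Cyfip1 and Cyfip2 are of the WAVE complex that the cytoplasmic ends of alpha and gamma members bind. At 4 months Nckap1 and Cyfip2 fell by 0.098 and 0.078, and Brk1 rose by 0.1, all of that complex. Its called genes thus went both ways at both ages.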

How the data were processed

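Cortex RNA of 72 libraries, 6 in each of 12 groups by genotype and age, was compared at the level of genes. Per the series' design text, strand-specific polyA libraries were read in pairs of 69 bases, aligned by STAR to the mm10 build and assigned to genes by HTSeq. The submitters' processing notes also name edgeR and limma, with no role. Versions, and how reads shared between genes were counted, are not given in the sources used here. The deposited values are RPKM, as the authors made them from assigned reads and gene model lengths, with no further scaling between libraries. Each value above 0 was a whole multiple of what 1 read is worth in that library and gene, within 0.05 reads for 100.0% of values, which gave the reads per library and the median-of-ratios factors. Those ran from 0.973 to 1.033 of the scaling by total reads. Precision is limited by depth and by 6 libraries per group.

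Genes at 0.3 RPKM or more in at least 6 libraries (15363, of which 55 were members) were tested with limma 3.58.1 in R 4.3.3 on log2(RPKM + 0.1), with the 12 groups and sex as terms, a robust trended empirical Bayes step and Benjamini-Hochberg adjustment over all genes tested within each of 21 comparisons, two-sided. Values within sexes, and sex differences within an age or genotype, came from a fit with groups parted by sex. Levels and drawings used Python 3.11.15, pandas 2.3.3, numpy 2.4.6 and matplotlib 3.10.9. The limma steps were tested on simulated data first.

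Alternatives were a pseudocount of 1, no filter (20323 genes), median-of-ratios scaling, fits of only the groups compared, no sex term, the first number of the sample name as a block (statmod 1.5.0), each library left out in turn, and, chosen after seeing the data, leaving out 6 libraries and leaving constant exons out of the lengths. The comparisons of 5xFAD with WT and of carriers with non-carriers at 1 age share libraries, as do the age comparisons. The members and gene lists were chosen with earlier results of these data known. Named with values are the C-type members, the 3 highest and 3 lowest members of each cluster, members called in a comparison, and up to 2 per direction with the smallest p. Constant exons and first exons were measured on the GENCODE annotation of the same build. Sequences, and the values of some listed genes, are not reported here.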

Additional observations from a re-analysis of the deposited data

Results flagged for a closer look

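In 106 sets of 6 libraries, made up of the members and sums followed by group, 5 held 1 library whose gap to the nearest other as a part of the group's whole range was beyond Dixon's critical value. Chance alone gives about 1 such library in 20 sets. Pcdhgc3 reached 23.8 RPKM in WT replicate 5 at 2 months, where the nearest library had 19.5 RPKM and the lowest 18.9 RPKM. Pcdhgc4 reached 3.55 RPKM in 5xFAD replicate 1 at 2 months, next to 3.15 RPKM, and 3.44 RPKM in BAC-TREM2 replicate 1 at 7 months, next to 3.13 RPKM. Pcdhgb5 reached 2.35 RPKM in 5xFAD replicate 3 at 7 months, next to 1.62 RPKM, in a group called lower than WT. The summed alpha cluster was 15.6 RPKM in BAC-TREM2 replicate 5 at 2 months, where the other 5 libraries had 17.5 to 18.5 RPKM.

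The carrier difference changed with age by the test of that change for 2 members. For Pcdhac2 the change at 4 months against 2 months was −0.175 on the log2 scale, and for Pcdhgc3 the change at 7 months against 2 months was 0.211. Both tests use the 2-month libraries, among them WT replicate 5 with its high Pcdhgc3 value, and without that library the call of Pcdhgc3 stood and that of Pcdhac2 ended.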

How the results depend on the processing

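Of 290 counts of called members recomputed under the alternatives other than single left-out libraries, 275 stayed within 1.5 times. Most of the counts were 0 in the fit of all groups, and a count that stayed at 0 was scored as unchanged. The 275 therefore overstates how stable the calls were. Of 68 calls of a member in a comparison, 39 were ended by no alternative and no left-out library, and all 68 kept their sign in each fit. Under pseudocount 1, median-of-ratios scaling and no sex term no count moved further. With only the groups compared, the members called lower numbered 0 for 5xFAD against WT at 4 months (3 in the fit of all groups), 1 for carriers at 4 months (5), 0 for 5xFAD against WT at 7 months (3) and 0 for the carrier difference at 4 against 2 months (1), and 1 was called higher for 5xFAD against WT at 7 months (0). With no filter 3 were lower in carriers at 4 months. Without the 6 libraries 2 were lower in carriers at 4 months, 0 in the carrier difference at 4 against 2 months and 7 at 7 against 2 months (11), and 1 was higher in 5xFAD/BAC-TREM2 against 5xFAD at 4 months (0). With the first number of the sample name as a replicate block (correlation 0.169), which the labels do not say pairs the samples, 3 were lower in carriers at 4 months, 0 at 4 against 2 months (1) and 6 at 7 against 2 months, 1 was higher at 7 against 4 months (2), and 4 were higher in females (7). The causes were not tested.

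Leaving out 1 library gave 1 to 3 lower for 5xFAD against WT at 4 months, 2 to 6 for carriers at 4 months, 1 to 4 for 5xFAD against WT at 7 months, 0 to 2 for the carrier difference at 4 against 2 months and 0 to 2 at 4 against 2 months. It gave 0 to 2 higher for 5xFAD/BAC-TREM2 against 5xFAD at 4 months, 0 to 1 for 5xFAD against WT and 1 to 3 for carriers at 7 months, and 1 to 3 at 7 against 4 months. The count for 5xFAD against WT at 7 months was 1 without WT replicate 2 or 5xFAD replicate 4 of that age. The 2 higher in 5xFAD/BAC-TREM2 came without 5xFAD replicate 6. By summed reads the alpha, beta, gamma and C-type shares were 12.2%, 22.2%, 65.6% and 42.5%, and without constant exons in the lengths 13.3%, 17.7%, 69.0% and 44.3%. Count models on the reads recovered from RPKM called members higher in 5xFAD/BAC-TREM2 against 5xFAD at 4 months, where limma called 0, and added calls in other comparisons. Their values are not reported, since the deposited values are not counts. With the block Pcdhb22 replaced Pcdhb12 among those higher in carriers at 7 months.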

Other observations

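Other adhesion genes of neurons, a list of 23 genes outside the protocadherins, moved in some of the same comparisons. In 5xFAD carriers against non-carriers at 4 months 5 were called lower and 1 higher in limma. Of all genes 4.54% were called lower and 8.67% higher there. Dscam, a homophilic receptor that keeps sister neurites apart, fell by 0.147 (adjusted p = 7.65e-05), and Lrrtm2, a postsynaptic adhesion protein, fell by 0.237 (adjusted p = 0.000579). Cntnap2 fell by 0.11 and Ncam2 by 0.24. Celsr3, an atypical cadherin of axon guidance, rose by 0.292 (adjusted p = 0.00751). At 7 months Dscam fell by 0.132 in carriers (adjusted p = 0.000108) and Cntnap2 fell by 0.092 (adjusted p = 0.0406), and the other 21 genes were not called. Of all genes 2.52% were called lower there.

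At 7 months against 2 months 13 of the 23 fell and 0 rose, where 8.60% of all genes tested were called lower and 11.8% higher. The median was −0.097, against 0.006 over all genes tested. Dscam fell by 0.113, Cdh10 by 0.206, Cdh8 by 0.177 and Nlgn3 by 0.105 (adjusted p = 2.8e-06, 6.2e-06, 6.47e-06 and 2.55e-05). In females against males limma called 0 of the 23, where it called 2.73% of all genes higher and 1.43% lower. These are counts of a list, and whether it differs from other genes was not tested.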
